A study of Homo sapiens with 4 samples.

Results

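The ETS transcription factors examined here are 10 genes (ETV2, FLI1, ERG, ETS1, ETS2, ETV6, SPI1, ELF1, ELK3 and GABPA) chosen by symbol among the 58274 genes of the expression table. The human genome holds 28 ETS genes, and the other 18 were used for comparison. RNA-seq was carried out on BC1, an established human induced pluripotent stem cell line, and on 3 populations derived from it during hematopoietic differentiation. The groups were undifferentiated BC1 cells, mesoderm cells positive for APLNR (day 2), hemogenic endothelial progenitors (HEPs) positive for CD31 and CD34 (day 5) and hematopoietic progenitor cells (HPCs) positive for CD43 (day 8), with 1 library each. Their libraries are called BC1, APLNR+, CD31+CD34+ and CD43+. The 3 differentiated populations received activin A and BMP4 in Custom mTeSR1 medium for 2 days, and the later populations then received VEGF and bFGF. All 4 libraries came from 1 cell line without any genetic change named in the labels, and no day between the collection days was sampled.

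ETS factors share a winged helix DNA-binding domain that reads a short GGAA core, and most members activate transcription while a few, such as ETV6, repress it. In the vessel wall and in blood, ETV2 opens the endothelial and blood program in mesoderm, FLI1, ERG and ETS1 keep endothelial genes on, and SPI1, also called PU.1, directs myeloid development. FLI1 is also a regulator of megakaryocytes, and GABPA is a broadly used factor of genes for mitochondrial function.

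Levels are FPKM, the number of fragments scaled to transcript length and to all mapped fragments, as the authors deposited them, so that levels of different genes can be set side by side per length. Since each population had 1 library, no spread between samples could be estimated and no test between populations was possible. The spacing of low values gave between 19700000 and 23600000 mapped fragments per library, from which approximate fragment numbers and 95% intervals were computed. These intervals cover counting error only, not differences between cultures, and fragments from amplified libraries are not independent molecules. A gene is said below to have risen or fallen when log2(FPKM + 1) changed by at least 1 between consecutive populations, and all 10 genes passed the filter of at least 1 FPKM in at least 1 library, as did 17137 genes in all.

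The summed levels of the marker genes followed the labels. Collection fixed this in part, since APLNR, PECAM1 (CD31), CD34 and SPN (CD43) encode the surface proteins by which the populations were collected. APLNR alone was at 1073 FPKM in APLNR+. Single markers that departed from the labels included CD45 and PECAM1, the latter at 93.1 FPKM in HEPs and 126 FPKM in HPCs. The summed level of 5 pluripotency markers went from 2844 FPKM in BC1 to 779, 146 and 116 FPKM in the later populations, while that of 5 mesoderm markers was 2206 FPKM in APLNR+ and at most 217 FPKM elsewhere. Among the pluripotency markers SOX2 was listed at 0 in CD31+CD34+ and CD43+, whereas LIN28A was still at 92.9 FPKM and DPPA4 at 22.5 FPKM in CD43+. The 5 endothelial markers summed to 1071 FPKM in HEPs and 228 FPKM in HPCs, and the 5 hematopoietic markers to 146 and 1402 FPKM. PTPRC, the gene of the leukocyte marker CD45, was at most at 0.0349 FPKM in every library, CD43+ included.

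Expression of the 10 ETS genes was low to moderate in BC1 cells, spread upwards in 2 steps and then split at the emergence of HPCs. From BC1 to APLNR+, 3 of 10 rose (FLI1, ETS1 and ELK3) and 0 fell, against 9.15% and 9.32% of all genes. On the way from APLNR+ to CD31+CD34+, 6 of 10 rose (FLI1, ERG, ETS1, SPI1, ELF1 and ELK3) and 0 fell, against 13.0% and 11.4% of all genes. From CD31+CD34+ to CD43+, 2 of 10 rose (SPI1 and ELF1) and 4 fell (ERG, ETS1, ETS2 and ELK3), against 7.63% and 13.5% of all genes. The falls of ETS1 and ETS2, -1.04 and -1.08 on the log2(FPKM + 1) scale, lay just past the threshold, and after rescaling the libraries by their median ratio they were -0.89 and -0.94, which left 2 genes (ERG and ELK3) fallen. The change of ETV6, 0.99, lay just short of the threshold and was 1.13 after rescaling, which made 3 genes risen. Rescaling shifted log2 levels by 0.15 between these libraries. In bulk RNA, fewer cells that express a gene and less RNA of it per cell cannot be told apart.

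**Figure D1:**
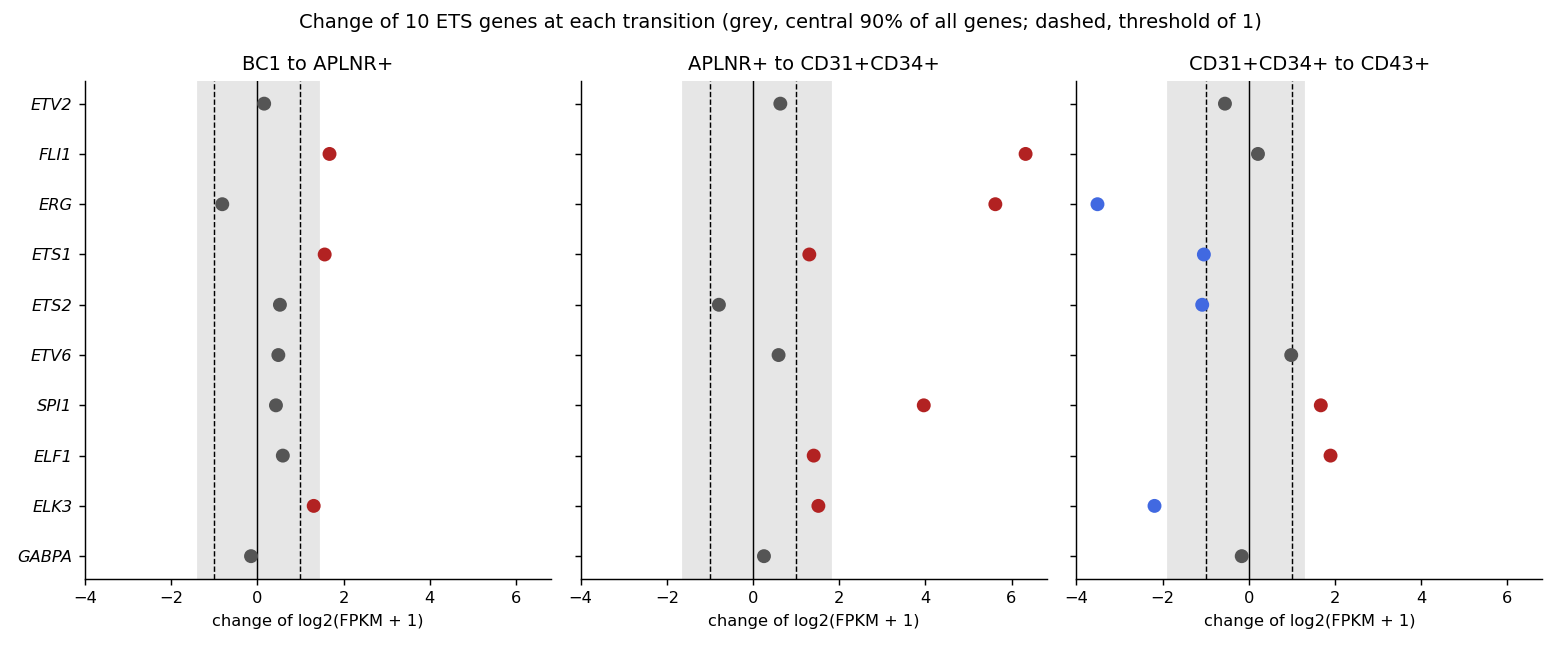
Change of log2(FPKM + 1) of each of the 10 ETS genes (rows) at the 3 transitions (panels), 1 library per population. The grey band holds the central 90% of all 17137 genes and dashed lines mark a change of 1 in either direction. FLI1, ERG and SPI1 lie far to the right from APLNR+ to CD31+CD34+ (6.33, 5.62 and 3.96), and ERG and ELK3 far to the left from CD31+CD34+ to CD43+ (-3.51 and -2.19).

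The median change of the 10 genes was 0.50, 1.36 and -0.36 at the 3 transitions, beside 0.00, 0.01 and -0.08 for all genes. None of the 10 was highest in BC1, ETS2 was highest in APLNR+, 5 were highest in CD31+CD34+ (ETV2, ERG, ETS1, ELK3 and GABPA) and 4 in CD43+ (FLI1, SPI1, ELF1 and ETV6). For GABPA this place is not firm, as its CD31+CD34+ level was not separable from that in BC1 by counting error (1.09-fold, 0.977 to 1.21). Among all genes, 27.7% were highest in BC1 cells, 22.7% in mesoderm cells, 25.5% in HEPs and 24.0% in HPCs. The span over the 4 libraries differed widely among the 10 genes, from 0.25 for GABPA to 8.22 for FLI1 on the log2(FPKM + 1) scale. The span of FLI1 was wider than that of 99.9% of protein-coding genes, and that of GABPA was wider than that of 2.55%.

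**Figure D2:**
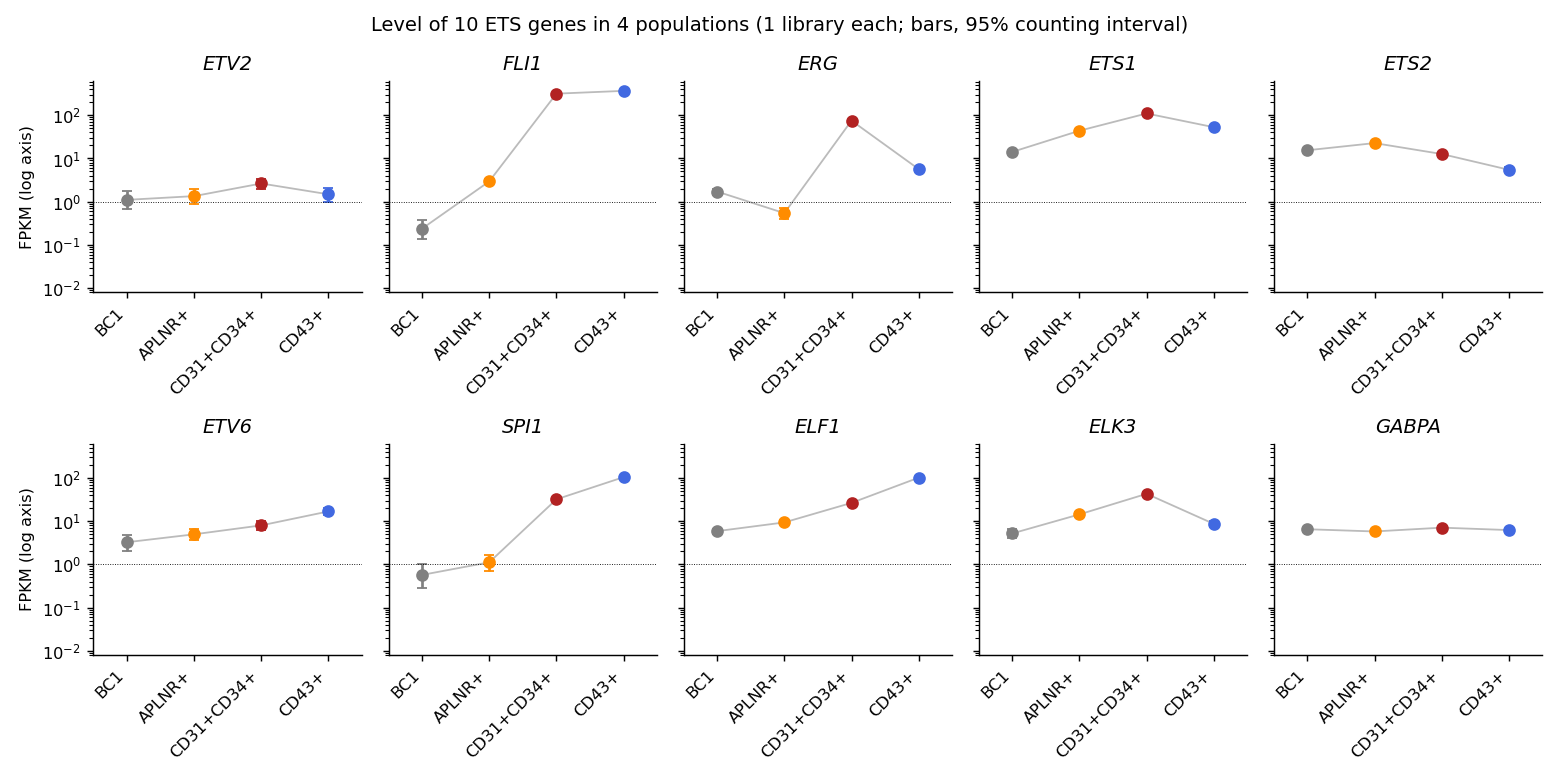
Level in FPKM (log axis) of each of the 10 ETS genes in the 4 populations, 1 library each, with 95% counting intervals as bars, which are often smaller than the points. FLI1 climbs from 0.238 to 367 FPKM, ERG and ELK3 peak in CD31+CD34+ at 75.1 and 43.0 FPKM, SPI1 and ELF1 are highest in CD43+ at 104 and 102 FPKM, and GABPA stays between 5.78 and 7.09 FPKM.

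ETV2 (ENSG00000105672, chromosome 19, 35641745 to 35644871 on the plus strand, GRCh38) acts early in embryos, in mesoderm that will form vessels and blood. It was at 1.10 FPKM in BC1 cells, 1.35 FPKM in mesoderm cells, 2.64 FPKM in HEPs and 1.48 FPKM in HPCs. Thus its highest level was in CD31+CD34+, and it stayed low in every library, between about 20 and 55 fragments. The CD31+CD34+ level was 1.96-fold that of APLNR+ (1.21 to 3.27) and 1.78-fold that of CD43+ (1.12 to 2.94). The levels in CD43+, APLNR+ and BC1 were not separable by counting error, with ratios of 1.10 (0.620 to 1.95) and 1.22 (0.641 to 2.26) between neighbours. No change of ETV2 reached the threshold, and FLI1 was 120-fold above ETV2 in CD31+CD34+.

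FLI1 (ENSG00000151702, chromosome 11, 128686535 to 128813267, plus strand) became the most abundant ETS transcript. Its level was 0.238 FPKM in BC1 cells, 2.95 FPKM in mesoderm cells, 316 FPKM in HEPs and 367 FPKM in HPCs. The rise thus came in 2 steps, 12.4-fold (7.52 to 21.5) to APLNR+ and 107-fold (94.0 to 123) to CD31+CD34+, and the level in HPCs was close to that in HEPs. The CD43+ to CD31+CD34+ ratio was 1.16 (1.14 to 1.18) and 1.29 after rescaling, below the threshold. In CD43+ FLI1 stood above 98.7% of the genes that passed the filter. SENCR, a long noncoding RNA on the opposite strand within the same locus, had 0.0489, 0.135, 8.73 and 16.3 FPKM in the same order. As the sources used here do not say whether counting used strand, fragments from the shared stretch of FLI1 and SENCR cannot be told apart.

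ERG (ENSG00000157554, chromosome 21, 38380027 to 38661780, minus strand), the closest relative of FLI1 and a guardian of endothelial identity, differed from it at both ends. It was at 1.72 FPKM in BC1 cells, 0.543 FPKM in mesoderm cells, 75.1 FPKM in HEPs and 5.68 FPKM in HPCs. So ERG exceeded 10 FPKM in HEPs alone among these 4 populations. Its level in APLNR+ was 3.16-fold below that of BC1 (2.30 to 4.41), a change of -0.82 that did not reach the threshold. It then rose 138-fold (106 to 185) and fell 13.2-fold (12.1 to 14.4). The FLI1 to ERG ratio was 0.139 in BC1 cells, 5.44 in mesoderm cells, 4.21 in HEPs and 64.6 in HPCs, so that the balance of this pair shifted to FLI1 in HPCs.

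Both ERG and ELK3 rose into HEPs and fell in HPCs by at least 2 on the log2(FPKM + 1) scale at the last transition, and ETV2, with its low and narrow range, stands in contrast. To show the DNA next to their start sites, 250 bases upstream of RefSeq starts (GRCh38.p14) are printed 5′ to 3′ on the strand of the gene, for windows that hold no annotated exon, with every GGAA or TTCC in capitals.
ERG, outer start, chr21:38660668-38660917, minus strand: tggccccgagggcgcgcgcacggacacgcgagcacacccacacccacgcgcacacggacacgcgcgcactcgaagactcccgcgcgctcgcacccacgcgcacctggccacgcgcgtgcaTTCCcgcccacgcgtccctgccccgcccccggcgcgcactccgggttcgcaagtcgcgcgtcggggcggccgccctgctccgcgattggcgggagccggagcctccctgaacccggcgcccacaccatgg
ERG, middle start, chr21:38584946-38585195, minus strand: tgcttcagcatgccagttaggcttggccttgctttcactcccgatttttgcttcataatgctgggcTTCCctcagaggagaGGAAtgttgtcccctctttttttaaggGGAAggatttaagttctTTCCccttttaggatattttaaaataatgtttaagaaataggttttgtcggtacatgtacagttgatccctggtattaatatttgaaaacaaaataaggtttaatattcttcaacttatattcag
ERG, inner start, chr21:38498505-38498754, minus strand: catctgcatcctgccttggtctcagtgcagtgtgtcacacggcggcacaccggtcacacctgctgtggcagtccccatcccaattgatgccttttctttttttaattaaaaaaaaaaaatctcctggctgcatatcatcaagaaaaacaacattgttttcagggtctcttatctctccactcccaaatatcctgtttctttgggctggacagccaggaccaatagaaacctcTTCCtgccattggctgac
ELK3, chr12:96194125-96194374, plus strand: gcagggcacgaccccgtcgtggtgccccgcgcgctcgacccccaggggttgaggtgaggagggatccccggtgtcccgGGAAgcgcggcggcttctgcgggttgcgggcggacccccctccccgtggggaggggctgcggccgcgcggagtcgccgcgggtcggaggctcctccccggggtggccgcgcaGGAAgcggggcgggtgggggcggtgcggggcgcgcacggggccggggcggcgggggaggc
ETV2, chr19:35641495-35641744, plus strand: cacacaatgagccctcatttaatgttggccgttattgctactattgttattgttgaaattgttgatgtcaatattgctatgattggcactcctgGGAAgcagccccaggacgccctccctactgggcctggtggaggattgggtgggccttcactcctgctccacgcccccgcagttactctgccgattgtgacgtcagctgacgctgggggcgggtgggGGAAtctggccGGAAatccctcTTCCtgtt

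The GGAA core, read on both strands as GGAA or TTCC, occurred in 92.7% of 35116 windows of this length before RefSeq starts, windows with exons included, with a median of 3 matches. The outer, middle and inner ERG windows held 1, 4 and 1 matches, the ELK3 window 2 and the ETV2 window 4. ETV2 also held 1 match to the longer CCGGAA (or TTCCGG), which contains the core and occurred in 14.5% of windows. The inner ERG window held 1 match to the GATA motif AGATAA (or TTATCT), found in 9.17% of windows, while the other 4 held 0. The E-box CANNTG, found in 61.8% of windows, had 1 match in the outer ERG window, 1 in the middle and 3 in the inner ERG window, 1 in the ETV2 window and 0 in the ELK3 window. These letters describe the windows and do not show that a factor binds there. Promoters of 7 of the 10 genes were matched in the RefSeq table, and those of FLI1, ETS1 and SPI1 were not used here.

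ETS1 (ENSG00000134954, chromosome 11, 128458761 to 128587558, minus strand) is the founding member of the family and acts in endothelium and lymphocytes. It was at 14.2 FPKM in BC1 cells, 43.9 FPKM in mesoderm cells, 110 FPKM in HEPs and 53.0 FPKM in HPCs. Its levels rose 3.09-fold (2.84 to 3.36) and 2.51-fold (2.39 to 2.63) at the first transitions and fell 2.08-fold (1.99 to 2.17) at the last, a fall that was 1.87-fold, and short of the threshold, after rescaling. All neighbours in the order of levels, CD31+CD34+, CD43+, APLNR+ and BC1, were separated by more than counting error, the closest pair being CD43+ and APLNR+ (1.21-fold, 1.14 to 1.27).

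ETS2 (ENSG00000157557, chromosome 21, 38805307 to 38824955, plus strand), a close relative that acts downstream of Ras signaling, went the other way after mesoderm. It was at 15.5 FPKM in BC1 cells, 22.7 FPKM in mesoderm cells, 12.7 FPKM in HEPs and 5.48 FPKM in HPCs. Its peak was thus in mesoderm cells and its lowest level in HPCs. The ratio was 1.47 (1.33 to 1.62) to APLNR+, and the level was then 1.79-fold lower (1.62 to 1.98) and 2.32-fold lower (2.00 to 2.70). ETS1 and ETS2 were about level in BC1, with an ETS1 to ETS2 ratio of 0.917, and the ratio was 1.93, 8.67 and 9.67 in the following populations.

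ELK3 (ENSG00000111145, chromosome 12, 96194382 to 96269835, plus strand) belongs to the ternary complex factors, which bind DNA together with serum response factor and are targets of ERK. It was at 5.21 FPKM in BC1 cells, 14.4 FPKM in mesoderm cells, 43.0 FPKM in HEPs and 8.67 FPKM in HPCs. It rose 2.76-fold (2.12 to 3.59) and 2.99-fold (2.58 to 3.48) and fell 4.96-fold (4.14 to 5.99), which made its profile a peak in HEPs like that of ERG but with a broader base. ELK1, a ternary complex factor too, moved between 21.2 and 27.9 FPKM, and ELK3 exceeded ELK1 only in HEPs, where their ratio was 1.73 beside 0.246 in BC1 cells, 0.515 in mesoderm cells and 0.328 in HPCs.

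SPI1 (ENSG00000066336, chromosome 11, 47354860 to 47378576, minus strand), the myeloid and B cell factor PU.1, was low before HEPs. It was at 0.572 FPKM in BC1 cells, from about 11 fragments, 1.12 FPKM in mesoderm cells, 32.0 FPKM in HEPs and 104 FPKM in HPCs. The early levels were not separable (1.96-fold, 0.899 to 4.36), after which SPI1 rose 28.6-fold (19.2 to 46.0) and 3.26-fold (2.99 to 3.55). GATA1, the erythroid and megakaryocytic factor that opposes SPI1, was listed at 0 before HEPs, where it was at 13.4 FPKM, and reached 190 FPKM in HPCs. The SPI1 to GATA1 ratio was therefore 2.39 in CD31+CD34+ and 0.550 in CD43+, although both genes rose.

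ELF1 (ENSG00000120690, chromosome 13, 40932028 to 41061440, minus strand), a factor of endothelial and lymphoid genes, was higher in each population than in the one before. It was at 5.89 FPKM in BC1 cells, 9.37 FPKM in mesoderm cells, 26.5 FPKM in HEPs and 102 FPKM in HPCs. The ratios were 1.59 (1.34 to 1.90), 2.83 (2.51 to 3.19) and 3.83 (3.58 to 4.10), the first of them below the threshold. ELF2, its near relative, stayed between 10.4 and 15.4 FPKM, so that the ELF1 to ELF2 ratio went from 0.565 in BC1 to 7.83 in CD43+. WBP4, a splicing factor gene that overlaps ELF1 on the opposite strand, lay between 5.37 and 7.58 FPKM.

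ETV6 (ENSG00000139083, chromosome 12, 11649854 to 11895402, plus strand) is a repressor needed by blood stem cells and megakaryocytes. It was at 3.26 FPKM in BC1 cells, 4.97 FPKM in mesoderm cells, 8.00 FPKM in HEPs and 16.8 FPKM in HPCs. These levels ascended in small steps, of which none reached the threshold. The ratios were 1.52 (0.919 to 2.64), 1.61 (1.07 to 2.40) and 2.10 (1.57 to 2.86). These intervals rest on a median transcript of 652 bases, and with the longest transcript of 5989 bases that of the first ratio was 1.34 to 1.74. From BC1 to CD43+ the level was 5.16-fold higher (3.38 to 8.32).

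GABPA (ENSG00000154727, chromosome 21, 25734570 to 25772460, plus strand), the DNA-binding subunit of GA-binding protein, was the steadiest of the 10. It was at 6.51 FPKM in BC1 cells, 5.78 FPKM in mesoderm cells, 7.09 FPKM in HEPs and 6.23 FPKM in HPCs. Its neighbours in the order of levels did not differ beyond counting error. Between consecutive populations the ratios were 0.888 (0.791 to 0.997), 1.23 (1.10 to 1.37) and 0.879 (0.790 to 0.977), and these intervals left out 1. The last of these ratios was 0.976 after rescaling. Its place among all genes stayed between percentiles 47.5 and 50.0. ATP5PF, a subunit gene of ATP synthase that overlaps GABPA on the opposite strand, was at 130 to 157 FPKM, and without strand the fragments of their shared stretch cannot be told apart. GABPB1, which encodes the partner subunit, was between 16.2 and 25.8 FPKM and also passed the threshold at no transition.

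The makeup of the ETS transcripts changed together with these levels. The 28 ETS genes summed to 318 FPKM in BC1 cells, 317 FPKM in mesoderm cells, 951 FPKM in HEPs and 785 FPKM in HPCs. The 10 genes made up 17.1%, 33.8%, 66.6% and 85.4% of these sums, so that ETS transcripts outside this set dominated BC1 and APLNR+. The leading gene was ETV4 in BC1 (36.6%), ERF in APLNR+ (21.9%) and FLI1 in CD31+CD34+ (33.2%) and CD43+ (46.7%). The PEA3 subfamily (ETV1, ETV4 and ETV5), which responds to FGF signaling, went from 47.9% to 25.0%, 10.9% and 0.434% of the sum. The ERG subfamily (ERG, FLI1 and FEV) went the opposite way, from 0.615% to 1.87%, 41.2% and 47.5%.

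**Figure D3:**
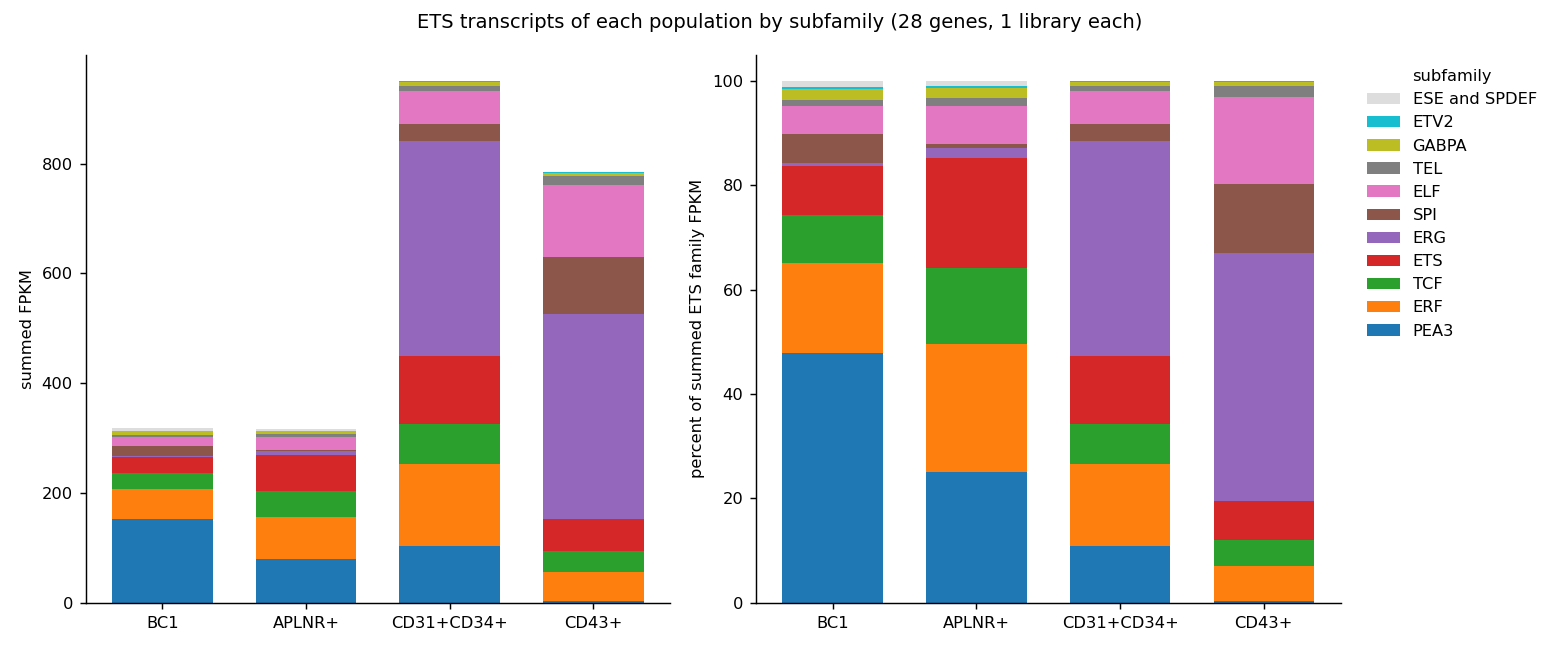
Summed FPKM (left) and percent of the sum (right) of the 28 human ETS genes by subfamily in the 4 populations, as stacked bars of 1 library each. The sum is 318, 317, 951 and 785 FPKM from left to right. The PEA3 layer shrinks from 47.9% in BC1 to 0.434% in CD43+, while the layer of the ERG subfamily grows from 0.615% to 47.5%. In CD43+ that layer is mostly FLI1 (46.7%), with the gene ERG at 0.723%.

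Among the other 18 ETS genes 12 passed the filter, of which 2, 2 and 0 rose and 2, 3 and 4 fell at the 3 transitions. Of all genes 9.15%, 13.0% and 7.63% rose and 9.32%, 11.4% and 13.5% fell, and the rises of these 12 at the second transition were close to that share. FEV, among those that rose to APLNR+ and then fell, reached 1 FPKM only in APLNR+, so the filter fixed the direction of both changes. ELF5 and SPIC were listed at 0 in every library. ETV4 was at 116 FPKM in BC1 cells, 62.6 FPKM in mesoderm cells, 75.7 FPKM in HEPs and 1.73 FPKM in HPCs. ETV1 was at 23.0, 5.21, 7.57 and 0.663 FPKM in the same order, and ETV5 at 12.6, 11.5, 20.0 and 1.01 FPKM. All 3 PEA3 genes thus fell from HEPs to HPCs, ETV4 by 43.8-fold (33.4 to 58.1), ETV5 by 19.7-fold (9.41 to 58.2) and ETV1 by 11.4-fold (8.44 to 16.0).

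ERF, a repressor regulated by ERK, was at 47.8, 69.5, 143 and 47.9 FPKM and so peaked in HEPs together with ERG, ETS1 and ELK3. ELF4, a factor of blood and immune cells, was at 0.701, 2.42, 17.7 and 15.7 FPKM. SPIB, the lymphoid relative of SPI1, was at 16.7, 1.47, 0.224 and 0.046 FPKM, the last from about 1 fragment and under the floor of 3. It was thus highest in BC1 cells, opposite to SPI1.

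**Figure D4:**
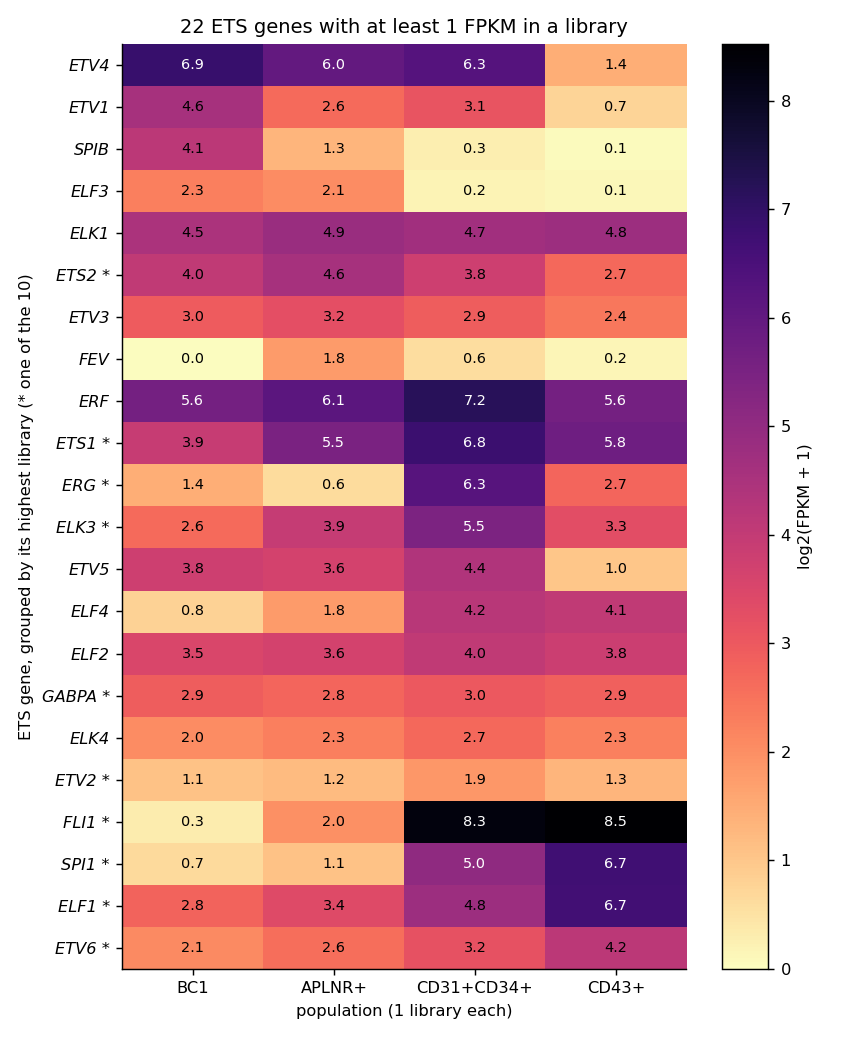
Level as log2(FPKM + 1) of the 22 ETS genes with at least 1 FPKM in a library (rows, ordered by the library in which each is highest) in the 4 populations (columns, 1 library each). Asterisks mark the 10 genes described here, of which none lies in the group highest in BC1, while ETV4, ETV1 and SPIB do.

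Genes linked to these factors were described through lists drawn from general knowledge. The lists were chosen with earlier results of these data known, so their counts describe these libraries only. Of 16 genes known as endothelial targets of ETS factors, 15 rose on the way from mesoderm cells to HEPs and 0 fell, against 13.0% and 11.4% of all genes, with a median change of 4.18. Then 12 of 16 fell in CD43+, against 13.5% of all genes, and 0 rose, with a median of -2.29, while from BC1 to APLNR+ 1 rose and 3 fell, against 9.15% and 9.32% of all genes. CDH5, the gene of VE-cadherin, was at 0.523, 0.663, 224 and 9.38 FPKM in BC1, APLNR+, CD31+CD34+ and CD43+. TIE1, an endothelial receptor tyrosine kinase, was at 6.44, 1.17, 226 and 70.8 FPKM, and ESAM, an endothelial adhesion molecule, at 0.162, 0.416, 98.0 and 76.5 FPKM. CDH5 fell at the last transition, as ERG did, and ESAM, whose change was -0.35, did not pass the threshold there. The list shares 4 genes (CDH5, KDR, TEK and PECAM1) with the endothelial markers, and PECAM1 encodes CD31, by which the HEPs were collected. ROBO4 reached 1 FPKM only in CD31+CD34+, so the filter fixed the direction of its changes into and out of that library.

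Of 10 megakaryocytic genes known as FLI1 targets, 5 rose from APLNR+ to CD31+CD34+ (median 1.56) and 9 rose from CD31+CD34+ to CD43+ (median 3.95), with 0 falling at either step. Among all genes 13.0% and 7.63% rose and 11.4% and 13.5% fell. From BC1 to APLNR+ 0 of the 10 rose and 2 fell, against 9.15% and 9.32% of all genes. PF4, a platelet chemokine, was at 1.76, 0, 14.4 and 1674 FPKM, and PPBP, another platelet chemokine, at 0.334, 0.206, 0.194 and 256 FPKM. GP1BB, a subunit of the von Willebrand factor receptor, was at 0.364, 0.690, 1.34 and 89.3 FPKM. All 10 genes were highest in CD43+, beside 24.0% of all genes. GP5, GP6, GP9 and PPBP reached 1 FPKM only in CD43+. The filter thus fixed in advance their highest library and the direction of their change from CD31+CD34+ to CD43+. GP5, GP9 and PPBP are among the 9 that rose there. ITGA2B, another gene of this list, is also one of the hematopoietic markers. FLI1 was also highest in CD43+, though it did not pass the threshold from CD31+CD34+ to CD43+.

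Of 18 myeloid genes known as SPI1 targets, 12 passed the filter, of which 8 rose at each of the last transitions (medians 1.49 and 1.63) and 0 fell, where 13.0% and 7.63% of all genes rose and 11.4% and 13.5% fell. CSF1R and NCF4, among the 8 that rose to CD43+, reached 1 FPKM only there. The filter thus fixed the direction of their last change in advance. LAPTM5, a lysosomal protein of blood cells, was at 0.995, 1.30, 180 and 205 FPKM. BTK, a signaling kinase, was at 0.0438, 0.957, 55.2 and 166 FPKM, and TYROBP, an adaptor of myeloid receptors, at 1.37, 2.35, 8.13 and 161 FPKM. The other 6 genes did not pass the filter, among them MPO and ITGAM, named here after their values were seen, at no more than 0.0790 and 0.342 FPKM in any library.

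None of 7 genes for mitochondrial function known as GABPA targets passed the threshold at any transition, with medians of -0.39, -0.36 and 0.30. Between 7.63% and 13.5% of all genes passed it in a given direction at a transition, so that 0 of 7 was near the background. TFB2M, TFAM and TFB1M, factors of mitochondrial transcription, had the widest changes, and TFB2M was at 12.8, 8.32, 5.05 and 10.2 FPKM. Among 8 response genes of FGF and ERK signaling, 2 rose and 1 fell at the first transition (median 0.36), 4 rose and 1 fell at the second (0.74) and 2 rose and 5 fell at the last (-1.86). The shares of all genes that rose and fell were 9.15% and 9.32%, 13.0% and 11.4%, and 7.63% and 13.5%, so that the 1 fall at each of the first transitions was near the background. SPRY4, an inhibitor of the pathway, was at 34.1, 60.1, 22.6 and 0.575 FPKM, and DUSP6, the ERK phosphatase, at 71.1, 6.64, 39.7 and 8.45 FPKM. FOS, an immediate early factor, went the other way, at 5.52, 9.47, 27.9 and 455 FPKM. The fall of SPRY4 and DUSP6 in CD43+ accompanied that of the 3 PEA3 genes.

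Of 16 partner factors, which bind with ETS proteins at shared regulatory elements, 7 rose and 0 fell from BC1 to APLNR+ (median 0.57), 7 rose and 2 fell to CD31+CD34+ (0.64), and 4 rose and 4 fell to CD43+ (-0.02). Beside 9.15%, 13.0% and 7.63% of all genes rising and 9.32%, 11.4% and 13.5% falling, the 2 falls to CD31+CD34+ were near the background. FOXC2, among the 4 that fell to CD43+, reached 1 FPKM only in CD31+CD34+, so the filter fixed the direction of that change. LMO2 was at 0.756, 0.459, 107 and 188 FPKM, and TAL1 at 0, 0.0608, 71.2 and 184 FPKM. GATA2 was ahead of both, at 0.125, 32.0, 254 and 211 FPKM. These 3 factors, which form complexes with FLI1 in blood progenitors, were all at high levels in CD31+CD34+ and CD43+, as FLI1 was.

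**Figure D5:**
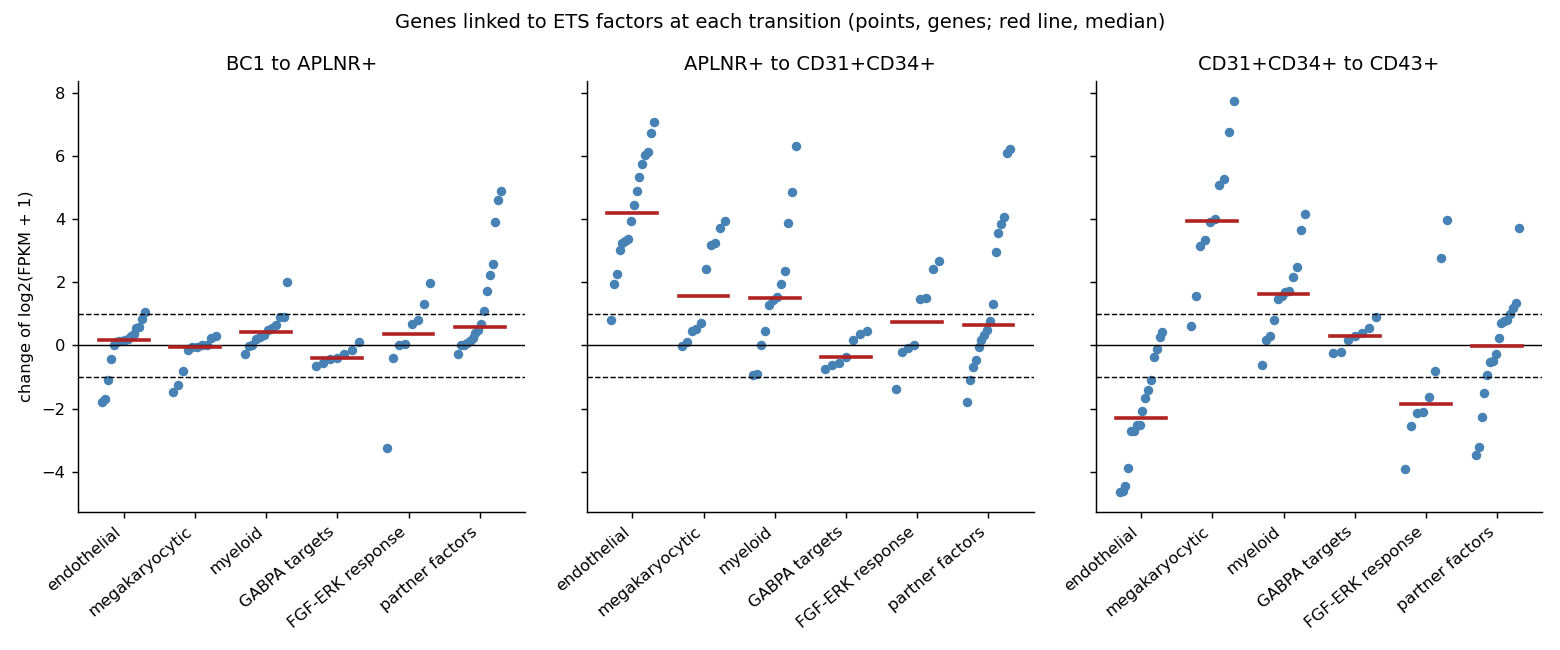
Change of log2(FPKM + 1) at the 3 transitions (panels) of the genes in 6 lists linked to ETS factors. Each point is a gene that passed the filter, red lines are medians and dashed lines mark a change of 1. The endothelial list has medians of 4.18 and -2.29 at the last transitions, and the megakaryocytic list reaches 3.95 in CD43+. None of the 7 GABPA targets lies past a dashed line, which is near the share of all genes.

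Markers of other cell types were measured beside these results. In CD31+CD34+, the 5 stromal markers summed to 398 FPKM, compared with 52.8, 94.7 and 47.0 FPKM in BC1, APLNR+ and CD43+. In each library 3 of the 5 reached 1 FPKM, COL1A1 and COL1A2 carried most of the sum in CD31+CD34+ (184 and 207 FPKM), and DCN was listed at 0 there. This sum peaked in the same library as ERG, ETS1 and ELK3, and its part in their levels was not tested. The endothelial markers in CD43+, 5 of 5 at 1 FPKM or more and between 9.38 and 126 FPKM, lay beside the remaining ERG level of 5.68 FPKM, and their part in it was not tested either. The 5 myeloid markers summed to 2.11, 4.60, 8.49 and 21.7 FPKM, with MPO at 0 in APLNR+ and CD31+CD34+. All 5 also belong to the list of SPI1 targets above, so they are not a separate set of genes. Only 2 of the 5 reached 1 FPKM in CD43+, LYZ (12.7 FPKM) and CSF1R (8.80 FPKM), and they carried most of that sum. CD14 went the other way after mesoderm, dropping from 1.97 FPKM to 0.587 FPKM in HEPs and 0.0339 FPKM in HPCs. ITGAM was highest in BC1 cells, with 0.342 FPKM.

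For each of the 10 genes that spanned at least 2 on the log2(FPKM + 1) scale, the protein-coding genes with the nearest profile were sought by the root mean squared difference of log2(FPKM + 1) over the 4 libraries, after centring each gene on its own mean. ERG was nearest to RASIP1 (0.14), ECSCR (0.26) and CD93 (0.41), all known from endothelium. RASIP1, for example, was at 5.12, 3.15, 156 and 14.2 FPKM. FLI1 had no very close neighbour, with GAD1 (0.30), F2RL2 (0.36) and LAPTM5 (0.65) nearest. SPI1 was nearest to TMEM173 (0.13), MEIS1 (0.13) and PTGS1 (0.18), and MEIS1, a homeobox factor of blood stem cells, was at 0.268, 1.12, 25.6 and 85.6 FPKM.

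ETS1 was nearest to TGFB1I1 (0.048), TRPV2 (0.077) and CACNB3 (0.099), and ELK3 to GRK5, CTSB and LRRN2 (0.15, 0.15 and 0.16). ELF1 was nearest to CAMK1, CDKN2D and DUSP1 (0.14, 0.14 and 0.17), and ETV6 to PTPN18, OXSM and UBE2B (0.069, 0.072 and 0.078). With 4 libraries, such likeness describes the profiles alone.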

How the data were processed

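RNA was sequenced from 4 populations with a TruSeq RNA kit. The authors deposited gene levels as FPKM for 58274 gene identifiers, and 90 identifiers on more than 1 row were summed. The submitters' processing notes name BWA, Bowtie, RSEM and hg19 without roles or versions, and strand use is not given in the sources used here. Positions are on GRCh38, since 99.96% of same-version identifiers had the start and end of GENCODE release 29. Mixed builds or multimapping rules could shift levels of overlapping genes.

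Levels were compared as log2(FPKM + 1) among 17137 genes with at least 1 FPKM in a library. No test was run, as each population had 1 library. Depth was found from the steps of low FPKM values, of which 91.9% to 93.9% lay within 0.1 of a whole fragment (transcripts of at least 1000 bases). Fragments used the median protein-coding transcript length, so intervals are approximate. They are exact Poisson (levels) or Clopper-Pearson (ratios) 95% intervals, with a floor of 3 fragments. Scripts used Python 3.11.15, NumPy 2.4.6, SciPy 1.17.1 and pandas 2.3.3 and were tested on simulated data.

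The members and lists were chosen with earlier results of these data known. Named genes were the 10 members, other ETS genes with at least 10 FPKM in a library, the 3 genes with the largest change in each list, and the 3 nearest profiles of members spanning at least 2. Partner, marker and other list genes outside this rule were named after their values were seen. Alternatives were another pseudocount, filter, threshold, scaling, row choice, transcript length and sum.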

Additional observations from a re-analysis of the deposited data

How the results depend on the processing

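The counts of risen and fallen ETS genes and their medians were recomputed with other pseudocounts, filters, scaling, thresholds and row choices, and no median changed sign. With a pseudocount of 0.1 FPKM, 1 gene (ERG) fell from BC1 to APLNR+, against 15.0% of all genes, and ETV6 joined the risen genes from CD31+CD34+ to CD43+ (3 in all, against 11.1%). With a threshold of 2, 0 genes rose from BC1 to APLNR+ (2.68% of all genes), 3 rose from APLNR+ to CD31+CD34+ (FLI1, ERG and SPI1, beside 4.08%), and 0 rose and 2 fell (ERG and ELK3) from CD31+CD34+ to CD43+ (2.28% and 4.32%). After rescaling by the median ratio, 3 rose (ETV6, SPI1 and ELF1) and 2 fell (ERG and ELK3) at that last transition, against 9.08% and 11.9% of all genes, so that the balance of 2 risen and 4 fallen turned. The 2 other filters and the choice of 1 row per gene left each count as it was, though ETV2 did not pass a filter of 5 FPKM. Summed over the 10 genes alone, the leading genes held larger shares, 28.6% for ETS2 in BC1, 41.0% for ETS1 in APLNR+, and 49.9% and 54.8% for FLI1 in CD31+CD34+ and CD43+, as fewer genes enter the sum. With fragments from the longest transcript, the interval of the ETV6 ratio from BC1 to APLNR+ (1.52) left out 1, the other 29 ratios keeping their side. Of 40 levels, 33 stayed within their counting interval under rescaling.

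No paired analysis was possible because each population had 1 library, and no replicate was left out for the same reason. Depth limits ETV2 in every library and SPI1 and FLI1 in BC1, which rest on few fragments. Fragment numbers depend on the transcript length chosen, in ETV6 and also in ELK3 and ETV5. With the median or the longest transcript, ELK3 in BC1 had about 79 or 405 fragments and ETV5 in CD43+ about 6 or 84. The fall of ETV5 from HEPs to HPCs had an interval of 15.8 to 24.7 with the longest.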

Other observations

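Among all 28 ETS genes, 18 reached 1 FPKM in BC1 cells, 21 in mesoderm cells, 19 in HEPs and 18 in HPCs. Of all 58274 genes, 14335, 13946, 14128 and 13554 did so. The number thus varied little for ETS genes as for all genes, while the ETS sum differed. At 10 FPKM or more there were 9, 8, 13 and 9 ETS genes, of which 2, 3, 7 and 5 belonged to the 10 described above. Per 1000000 units of the summed FPKM of a library, ETS transcripts made up 505, 512, 1566 and 1190 in the same order. FEV, the third gene of the ERG subfamily, was listed at 0 in BC1 and was at 2.42, 0.503 and 0.116 FPKM in APLNR+, CD31+CD34+ and CD43+, a rise of at least 25.7-fold to APLNR+ against the floor of 3 fragments in the BC1 library. It was named after its values were seen. AP001122.1, a noncoding RNA that starts beside FLI1 on the opposite strand, was listed at 0 in BC1 and was at 0.0563, 3.67 and 2.69 FPKM in the later populations.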
